A study of Mus musculus with 24 samples.

Results

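Metabotropic glutamate receptors are G protein-coupled receptors that sense glutamate at and around the synapse. The ionotropic receptors, in contrast, are themselves ion channels. Group I receptors couple to Gq/11, activate phospholipase C and sit mainly behind the synapse, where Homer proteins tie them to the postsynaptic density. Group II and group III receptors couple to Gi/o, inhibit adenylyl cyclase and presynaptic calcium channels, and lower transmitter release, and the group II receptor Grm3 is also abundant in astrocytes. In cerebral ischaemia, glutamate accumulates outside cells, which is why both kinds of glutamate receptor have been studied in stroke models.

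The transcripts described here are the 6 metabotropic glutamate receptor genes chosen by symbol, Grm5 of group I, Grm2 and Grm3 of group II, and Grm4, Grm7 and Grm8 of group III, out of 14769 genes listed in any of the 4 deposited tables. All 6 are listed in each of the 4 tables, and none was chosen by its measured value. The libraries were made from ribosomal RNA-depleted total RNA of mouse cortex. The animals were males of 3 to 4 months with transient middle cerebral artery occlusion for 1 h and reperfusion for 1 day. Their genotype was either wild type, written WT, or a knockout of ciRS-7, written KO. ciRS-7 is the circular RNA also called Cdr1as. The strain label C57BL/6N-Cdr1asem1Nikr stands on the libraries of both genotypes. Each animal gave a library labelled CL and a library labelled PI. The labels do not spell out these abbreviations, so they are used as written. With 6 animals of each genotype there were 24 libraries, in groups of 6 (CL and PI of WT, CL and PI of KO), and no uninjured mouse was among the libraries analysed here, so every value below comes from an animal that had the occlusion.

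Cdr1as checks the genotype labels: it was deposited at 2610 to 2931 CPM (counts scaled to a common library total) in the PI WT libraries and at 0.166 CPM or less in the PI KO libraries, and at 3434 to 3801 CPM in CL WT against 0.0601 CPM or less in CL KO. The libraries held 3757000 to 10508000 reads in listed genes, with a median of 6919000, as recovered from the steps between deposited values. The shallowest was CL KO library 6. For each gene and group of 6 libraries, the values at both ends are deposited as tied pairs, 2 at the lower and 2 at the upper quartile. The lowest and highest values quoted below are these deposited ends, and the true lowest and highest library of each group cannot be recovered. Group means are therefore trimmed means of the 4 inner libraries, and differences were tested with a trimmed-mean test moderated with limma and adjusted by Benjamini-Hochberg over all genes of a table. Nothing in the labels ties the 6 animals of a group to separate litters or operating days.

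Per kilobase of annotated exon, the 6 receptors fell into 4 levels. In the CL WT libraries Grm3 had a median of 51.0 CPM per kb and Grm5 one of 47.2, followed by Grm7 with 19.0, Grm8 with 4.03, Grm2 with 3.60 and Grm4 with 1.16. The gap from Grm5 to Grm7 was 1.28 on the log2 scale of levels (SE 0.044), that from Grm7 to Grm8 was 2.31 (SE 0.120), and that from Grm2 to Grm4 was 1.64 (SE 0.125), each with separate ranges. By this length Grm8 and Grm2 did not differ beyond their spread, with a gap of 0.06 (SE 0.160) and ranges that overlap. Divided by the longest coding transcript instead, Grm8 was at 9.92 and Grm2 at 3.86 CPM per kb in CL WT, so their tie depends on the length used.

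Grm3 lay above Grm5 by 0.12 (SE 0.064) in CL WT and by 0.17 (SE 0.090) in CL KO, by 0.05 (SE 0.109) in PI WT, and below it by 0.01 (SE 0.132) in PI KO. The order of these receptors depends on the length used: divided by the longest coding transcript, Grm3 lay below Grm5 by 0.23 in CL WT, 0.30 in PI WT, 0.18 in CL KO and 0.36 in PI KO. Per kilobase of annotated exon, the other steps down, to Grm7, to Grm2 and Grm8, and to Grm4, were present in all 4 groups. Divided by the longest coding transcript, Grm8 also lay above Grm2 in the other groups. The values were 9.63 and 3.43 CPM per kb in PI WT, 10.3 and 4.43 in CL KO, and 9.23 and 3.76 in PI KO. Of the 6 receptors' summed CPM per kb in CL WT, Grm3 made up a median of 40.8%, Grm5 36.9%, Grm7 15.5%, Grm8 3.18%, Grm2 2.93% and Grm4 0.925%. In PI WT these medians were 39.3%, 37.7%, 15.7%, 3.63%, 3.19% and 0.981%, in the same order as in CL WT.

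The depth behind these levels differs widely between members. Deposited CPM times the recovered depth comes to 1602 to 4970 reads for a Grm5 value, 543 to 1670 for Grm3, 405 to 1114 for Grm7 and 123 to 462 for Grm8. For Grm2 it comes to 83 to 218 reads and for Grm4 to 31 to 86. These are approximate, since at the tied ends the deposited value is not the library's own. At the median of 47 reads, counting alone gives a library's Grm4 value an SD of 0.21 on the log2 scale, whereas for Grm5 it gives 0.027. The differences below are between group means, so these SDs of single values cannot be set directly against them.

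The first comparison asks how the receptors differ between PI and CL cortex of the same wild-type animals. All 6 receptors had lower mean levels in PI WT than in CL WT, and 3 of them fell by the test, 1 in each group of receptors: Grm5, Grm3 and Grm7. Among all 14489 genes of this table, 10.6% passed the test, and 5.2% of all genes passed as higher and 5.4% as lower in PI WT. The median difference of the 6 receptors was -0.20 on the log2 scale, beside 0.01 over all genes. In bulk tissue, fewer cells of a type and less RNA per cell cannot be told apart, and this holds for each difference below.

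Grm5 (ENSMUSG00000049583.15, chromosome 7, 87584168 to 88134907, plus strand, GRCm38) encodes mGluR5, the Gq-coupled group I receptor of forebrain neurons. It was deposited at 455 CPM in the lowest, 484 in the median and 491 in the highest CL WT library, against 391, 399 and 420 CPM in PI WT. Every PI WT value lay below every CL WT value. The difference of the trimmed means was -0.24 (SE 0.058, adjusted p = 0.0176 by the limma-moderated test), a level in PI of 0.846 times that in CL. It follows that the PI value was the lower one in 6 of 6 animals, by 0.19 to 0.33 on the log2 scale of the deposited values. Here and below, counts by animal use deposited values whose ends are tied, so an animal's true difference is often not known. Where the ranges do not overlap, the count adds nothing to them.

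Grm3 (ENSMUSG00000003974.6, chromosome 5, 9485541 to 9725170, minus strand) encodes mGluR3, a Gi/o-coupled group II receptor of neurons and astrocytes. It ran from 147 CPM through a median of 155 to 161 CPM in CL WT and from 112 through 125 to 137 CPM in PI WT. The groups did not overlap, and the PI WT values were spread over a wider range than those of CL WT. The difference was -0.31 (SE 0.090, adjusted p = 0.0451 by the limma-moderated test), the largest of the 6 in wild type and the one called with the least margin. As the ranges do not overlap, it was negative in 6 of 6 animals. With a prior variance that has no trend with expression, Grm3 (adjusted p = 0.136) and Grm5 (adjusted p = 0.0785) no longer passed the limma-moderated test, and Grm7 did.

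Grm7 (ENSMUSG00000056755.13, chromosome 6, 110645581 to 111567230, plus strand) encodes mGluR7, a group III receptor of the presynaptic active zone with low affinity for glutamate. Its CL WT libraries were deposited within 112 to 114 CPM and its PI WT libraries within 94.3 to 98.1 CPM. These were the tightest groups of any of the receptors, and they stood well apart. The difference was -0.23 (SE 0.050, adjusted p = 0.0125 by the limma-moderated test). With the ranges apart, the deposited PI value was lower in 6 of 6 animals, by 0.19 to 0.26. An antisense gene, Gm20387, shares 130 exonic bases with Grm7, and since it is not stated whether counting used strand, reads from those bases cannot be assigned to either gene.

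The other group II receptor did not pass the test. Grm2 (ENSMUSG00000023192.12, chromosome 9, 106643095 to 106656082, minus strand), which encodes mGluR2, a mostly presynaptic autoreceptor, was at 16.7, 17.6 and 20.4 CPM in the lowest, median and highest CL WT library and at 15.1, 16.3 and 17.2 CPM in PI WT. The groups overlapped, and PI was the lower value in 3 of 6 animals. The difference was -0.17 with a 95% interval from -0.42 to 0.08, so neither no change nor the fall seen for Grm3 lies outside it. The antisense gene Gm28111 shares 470 exonic bases with Grm2 and is not listed in the tables.

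The remaining group III receptors did not pass the test either. Grm4 (ENSMUSG00000063239.17, chromosome 17, 27422387 to 27521403, minus strand) encodes mGluR4, a presynaptic receptor best known from cerebellar granule cells. It ran from 6.78 through 6.94 to 7.62 CPM in CL WT and from 5.95 through 6.13 to 6.78 CPM in PI WT, so that the highest PI WT and the lowest CL WT values met at the same rounded level without overlapping. The difference was -0.18 (SE 0.131, adjusted p = 0.460 by the limma-moderated test).

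Grm8 (ENSMUSG00000024211.15, chromosome 6, 27275119 to 28135178, minus strand) encodes mGluR8, a presynaptic group III receptor, and its exons hold the microRNA gene Mir592 on the same strand. It was at 33.7, 39.8 and 41.8 CPM in CL WT and at 34.8, 36.8 and 40.0 CPM in PI WT. The ranges lay on top of each other, with PI the lower value in 3 of 6 animals. The difference was -0.04 with a 95% interval from -0.29 to 0.20. Over the 6 receptors, the deposited ranges of 4 (Grm5, Grm3, Grm4 and Grm7) did not overlap and were lower in PI WT, where 16.3% of all genes were separated in that direction.

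**Figure D1:**
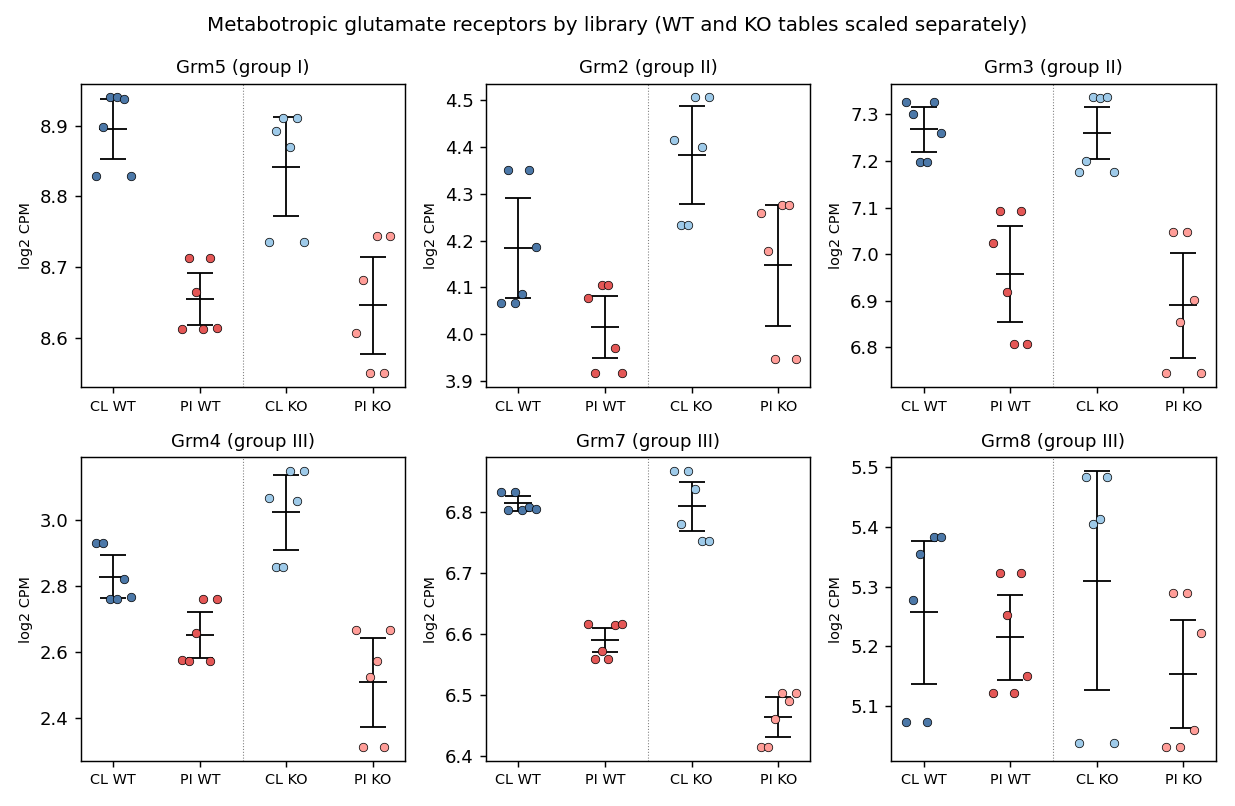
Deposited log2 CPM (y axis, one scale per panel) of the 6 receptors in each of the 24 libraries, as points, by group; the bars give the trimmed mean of the 4 inner libraries ± its SE. The dotted line parts the WT table from the KO table, which were scaled separately; Grm3, Grm4 and Grm7 separate PI from CL in both genotypes, whereas Grm8 overlaps in both.

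The same comparison in the KO animals gave the same direction for each receptor. All 6 had lower mean levels in PI KO than in CL KO, and 2 fell by the test, Grm3 and Grm7. Of 14338 genes, 10% passed the test, 5.11% as higher and 4.94% as lower in PI KO. The median difference of the receptors was -0.29, beside -0.00 for the median gene. With the animal kept as a block, Grm5 and Grm4 passed as well and 4 receptors were called. That fit also called more genes in general, 2154 of the 14338 against 1440 without the block. In it both libraries tied at an end carry the same value, so the animal differences it uses are partly not the animals' own.

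Grm7 was at 108, 112 and 117 CPM in the lowest, median and highest CL KO library and at 85.3, 89.0 and 90.7 CPM in PI KO. The groups stood apart by more than the width of either. The difference was -0.35 (SE 0.063, adjusted p = 0.00446 by the limma-moderated test), a level in PI of 0.787 times that in CL. With the ranges apart, it was negative in 6 of 6 animals.

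Grm3 ran from 145 through 154 to 162 CPM in CL KO and from 107 through 118 to 132 CPM in PI KO. The groups did not overlap. The difference was -0.37 (SE 0.099, adjusted p = 0.0339 by the limma-moderated test). With the ranges apart, the deposited PI value was lower in 6 of 6 animals, by 0.15 to 0.48. The adjusted p of Grm3 was 0.114 by the limma-moderated test without a trend in the prior variance.

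Grm4 had the largest difference of the 6 in KO animals. It was at 7.25, 8.36 and 8.87 CPM in CL KO and at 4.96, 5.85 and 6.35 CPM in PI KO. No PI KO value reached the lowest CL KO value, so the deposited PI value was lower in 6 of 6 animals, by 0.34 to 0.75. The difference was -0.52 (SE 0.172), a level of 0.699 times that in CL, with adjusted p = 0.0781 by the limma-moderated test. With the animal as a block the SE was 0.176, no smaller than without it, and the adjusted p was 0.0422 by the limma-moderated test. Grm4 is also the receptor with the fewest reads.

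Grm5 ran from 426 through 471 to 481 CPM in CL KO and from 375 through 400 to 429 CPM in PI KO. The groups met at their ends: the highest PI KO values lay just above the lowest CL KO values. The difference was -0.20 (SE 0.080), near that in wild type, with adjusted p = 0.148 by the limma-moderated test and 0.0453 with the animal as a block. PI was lower in 5 of 6 animals. CL KO library 6, the shallowest, is one of the libraries deposited at the low end of CL KO for Grm5, Grm3, Grm7 and Grm8, and at the high end for Grm2 and Grm4.

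Grm2 was at 18.8, 21.2 and 22.7 CPM in CL KO and at 15.4, 18.6 and 19.4 CPM in PI KO, with overlapping ranges and a lower PI value in 6 of 6 animals. Its difference was -0.24 (95% interval -0.53 to 0.06). Grm8 was at 32.8, 42.5 and 44.8 CPM in CL KO and at 32.7, 35.4 and 39.1 CPM in PI KO. The CL KO values of Grm8 were split between 2 low and 4 high libraries, and its difference was -0.16 (95% interval -0.49 to 0.18). The ranges of 3 receptors, Grm3, Grm4 and Grm7, did not overlap and were lower in PI KO, as for 17.2% of all genes.

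**Figure D2:**
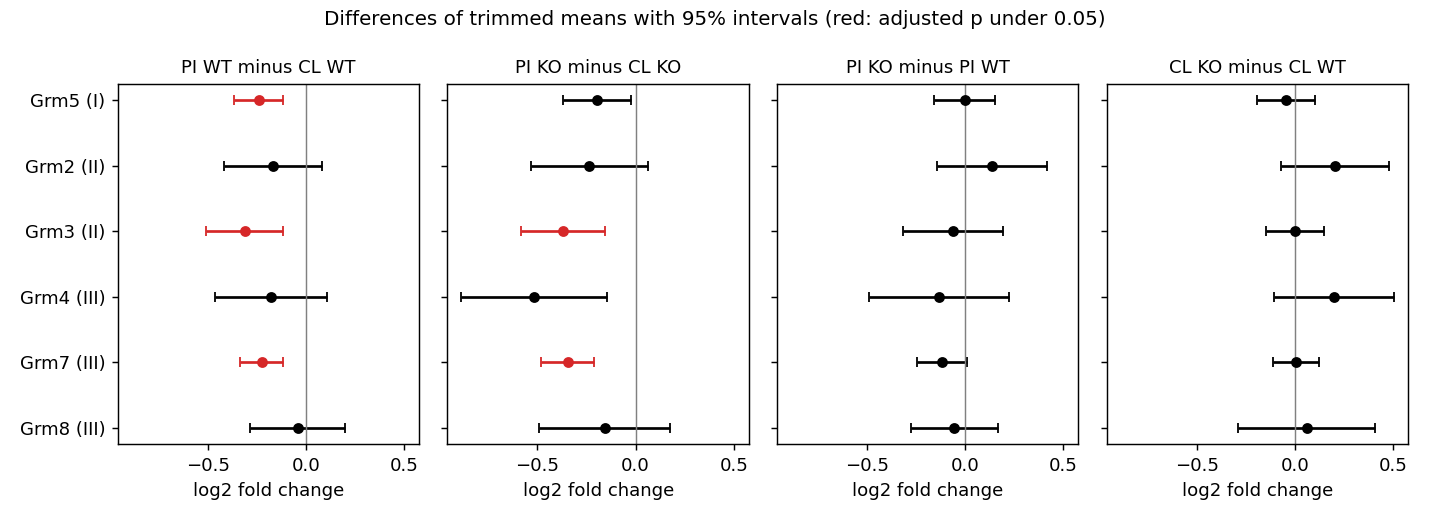
Log2 fold change (x axis) of the trimmed means of each receptor (y axis, receptor group in brackets) in the 4 comparisons, with 95% intervals; red marks an adjusted p under 0.05. The PI against CL differences all lie below 0, and the KO against WT intervals all include 0.

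Grm3 and Grm7 were the receptors called in both genotypes, and their promoters as annotated by RefSeq (GRCm38.p6; 250 bases before to 50 after the first listed start) are shown to let a reader compare them. Capitals mark matches to the GC box GGGCGG and the EGR motif GCGNGGGCG, searched on both strands. Grm3 lies at chr5:9725303-9725602 on the minus strand and Grm7 at chr6:110645262-110645561 on the plus strand.
Grm3: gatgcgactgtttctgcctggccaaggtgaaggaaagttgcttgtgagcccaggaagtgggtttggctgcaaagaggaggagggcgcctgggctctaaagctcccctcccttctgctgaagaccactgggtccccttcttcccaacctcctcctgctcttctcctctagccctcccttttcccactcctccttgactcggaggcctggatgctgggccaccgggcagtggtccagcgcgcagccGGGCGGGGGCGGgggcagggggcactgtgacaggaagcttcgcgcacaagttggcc
Grm7: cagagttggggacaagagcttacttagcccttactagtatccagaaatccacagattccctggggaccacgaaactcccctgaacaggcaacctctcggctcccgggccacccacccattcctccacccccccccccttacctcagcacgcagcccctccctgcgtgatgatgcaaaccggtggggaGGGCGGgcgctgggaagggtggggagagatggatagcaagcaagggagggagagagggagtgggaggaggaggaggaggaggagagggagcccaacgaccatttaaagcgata
The Grm3 promoter holds the GC box at 2 places, which overlap 1 match to the EGR motif, and the Grm7 promoter holds 1 GC box and no EGR match. Of 27025 RefSeq promoters of the same length, 35.9% hold the GC box and 5.55% the EGR motif. The letters TGACG, the core of the cyclic AMP response element, was in neither and is in 21.0% of promoters. G and C make up 63.7% of the Grm3 window and 61.0% of the Grm7 window. The matches are letters in a window, and binding was not measured.

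The second pair of comparisons asks whether loss of ciRS-7 was accompanied by a difference in the receptors within one kind of sample. No receptor passed the test in PI KO against PI WT, where 0.0208% of 14452 genes (3 genes) did, or in CL KO against CL WT, where 0.0279% of 14323 genes (4 genes) did. At an unadjusted p under 0.05 there was also no receptor in either, beside 5.75% and 5.73% of all genes. The test by limma on the deposited values as they stand, whose spread is too small because the ends were drawn in, called 1 receptor, Grm7, in PI KO against PI WT and none in CL KO against CL WT.

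In the PI libraries, Grm7 came nearest to a difference. In the table that holds both PI groups it ran from 96.1 through 98.4 to 100.1 CPM in PI WT and from 87.3 through 91.2 to 92.9 CPM in PI KO. The ranges did not overlap, as for 7.19% of all genes in that direction. The difference was -0.12 (SE 0.059, 95% interval -0.25 to 0.01), with adjusted p = 0.854 by the limma-moderated test.

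Grm5 was deposited at 400 to 427 CPM in PI WT and at 384 to 440 CPM in PI KO, and its difference was -0.00 (95% interval -0.16 to 0.15). Grm3 differed by -0.06 (-0.32 to 0.19), Grm2 by 0.14 (-0.14 to 0.42), Grm4 by -0.13 (-0.49 to 0.22) and Grm8 by -0.06 (-0.28 to 0.16), each with overlapping ranges. For Grm5 the interval leaves out a change as large as its fall between PI and CL in wild type, and for Grm4 it does not.

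In the CL libraries, Grm7 was deposited at 109 to 111 CPM in WT and at 106 to 115 CPM in KO, and Grm3 at 143 to 157 CPM in WT and 142 to 159 CPM in KO. These groups lay on top of each other, with differences of 0.00 for both (95% intervals -0.11 to 0.12 for Grm7 and -0.15 to 0.15 for Grm3). Grm5 differed by -0.05 (-0.19 to 0.10) and Grm8 by 0.06 (-0.29 to 0.41). The weakly expressed Grm2 and Grm4 had the largest positive differences, 0.20 (-0.07 to 0.48) and 0.20 (-0.11 to 0.51), and their ranges overlapped, while those of 13.5% of all genes did not.

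Whether the difference between PI and CL itself depended on genotype was tested over the 14211 genes in both tables. No gene passed (0 by the limma-moderated test, 646 or 4.55% at an unadjusted p under 0.05), and no receptor reached an unadjusted p under 0.05. The difference was -0.34 (95% interval -0.79 to 0.11) for Grm4 and -0.12 (-0.28 to 0.04) for Grm7, more negative in KO for both, each with adjusted p = 0.992 by the limma-moderated test. For Grm5 it was 0.04 (-0.17 to 0.26), for Grm3 -0.06 (-0.36 to 0.24), for Grm2 -0.07 (-0.46 to 0.33) and for Grm8 -0.11 (-0.55 to 0.32). So Grm5 being called in wild type and not in KO animals is not shown to be a difference between the genotypes. Limma on the deposited values called Grm4 and Grm7 here, with adjusted p of 0.0327 and 0.0277.

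ciRS-7 is known to bind the microRNA miR-7, so the receptors were searched for its sites. Both mature forms in RefSeq are shown with the seed, bases 2 to 8, in capitals.
mmu-miR-7a-5p: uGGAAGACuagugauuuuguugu
mmu-miR-7b-5p: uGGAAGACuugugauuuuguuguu
Both have the same seed, whose matching site in a transcript is GTCTTCC. This site occurred 0 times in the longest annotated 3′ UTR of each of the 6 receptors, which ran from 227 bases for Grm3 to 4038 bases for Grm5. Of 12678 genes with an annotated 3′ UTR, 14.6% held it. The search says only that these letters are not in these windows.

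Of 10 listed genes of Gq/11 transduction, through which group I receptors signal, 5 fell and none rose in PI WT against CL WT, and likewise 5 fell and none rose in KO, with medians of -0.17 and -0.27. Plcb1, the phospholipase C isoform that Gq activates in cortex, differed by -0.48 (SE 0.069, adjusted p = 0.000937 by the limma-moderated test) in WT and by -0.43 in KO, and Plcb4, a related isoform, by -0.42 and -0.34. Prkca, a protein kinase C isoform, fell by 0.42 in WT and by 0.36 in KO. Itpr1, the IP3 receptor that releases calcium from stores, fell by 0.25 in WT and by 0.31 in KO. In the other direction, Gna11, a Gq-family subunit, was at 0.07 and 0.04, and Plcb3 was at 0.51 (SE 0.156) in WT and 0.42 (SE 0.155) in KO. Neither passed (adjusted p = 0.0563 and 0.108 for Plcb3 by the limma-moderated test), and both are named after their values were seen. Prkcb fell by 0.25 in WT and was at -0.23 without passing in KO (adjusted p = 0.0562 by the limma-moderated test).

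Among 9 listed scaffold and binding proteins of group I receptors, 3 fell and none rose in each genotype. Homer1, which links mGluR5 to the postsynaptic density and whose short form is an immediate early transcript, had the largest fall of the list, -0.62 (SE 0.050, adjusted p = 1.68e-05 by the limma-moderated test) in WT and -0.60 (SE 0.113) in KO. Its short and long forms are not separated in these gene-level values. Homer2 fell by 0.32 and 0.39. Homer3, a related scaffold, was at 0.66 (SE 0.301) in WT and 0.17 in KO without passing, and is named after its values were seen. Frmpd4, which binds Homer and mGluR5, fell by 0.22 in WT and was at -0.13 in KO. Shank1, a scaffold of the postsynaptic density, was at -0.21 in WT and fell by 0.47 in KO.

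Of 17 listed genes of Gi/o transduction, through which group II and group III receptors act, 5 fell and none rose in WT, and 5 fell and 1 rose in KO. The medians were -0.11 and -0.22. Adcy8, a calcium-stimulated adenylyl cyclase, fell by 0.50 in WT and by 0.62 in KO, Adcy2 by 0.35 and 0.27, and Adcy1 by 0.24 and 0.38. Kcnj3, a subunit of the G protein-gated potassium channel, fell by 0.38 and 0.39. Kcnj9, another subunit of that channel, fell by 0.25 in WT and was at -0.25 without passing in KO. Cacna1a, the P/Q-type calcium channel of nerve terminals, was at -0.26 in WT and fell by 0.39 in KO. Gnai3, an inhibitory G protein subunit with wide expression outside neurons, was at 0.25 in WT without passing and rose by 0.37 in KO.

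Of 4 listed binding partners of group III receptors (Pick1, Grip1, Elfn1 and Elfn2), none passed the test in either genotype. Among 9 listed genes of receptor desensitisation, Arrb1 and Arrb2, the beta-arrestins, rose in WT by 0.26 and 0.34 and were at 0.10 and 0.05 in KO. Rgs4 and Rgs14, which speed the shut-off of G proteins, fell in KO by 0.33 and 0.49 and were at -0.48 and -0.21 in WT without passing. The interaction test called none of the genes in these lists, so these are not shown to differ between genotypes.

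**Figure D3:**
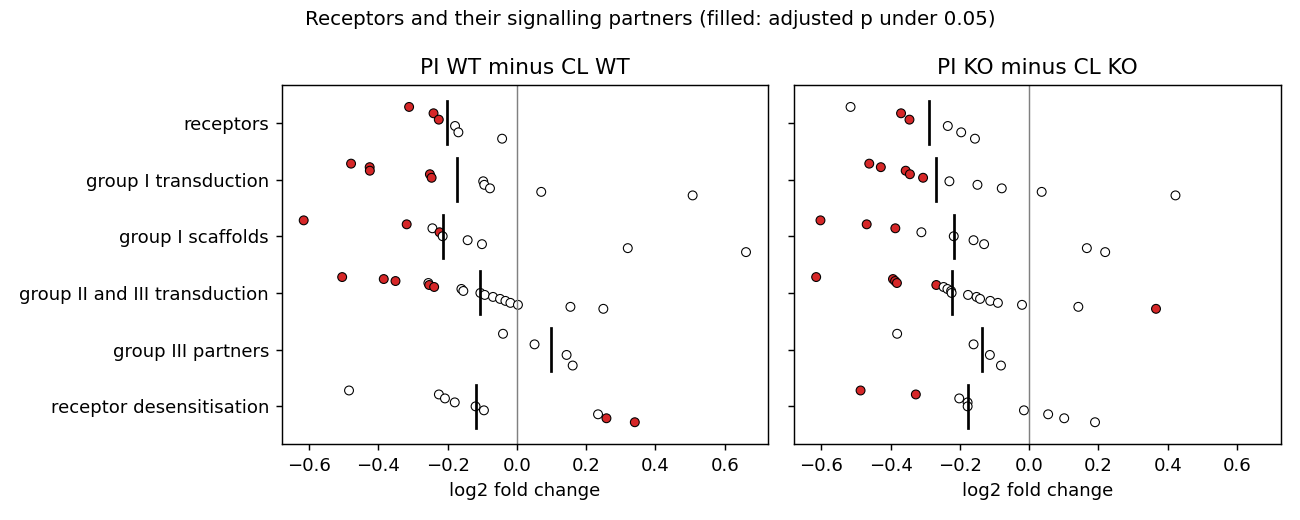
Log2 fold change (x axis) of PI against CL in WT (left) and KO (right) for the 6 receptors and for each listed partner gene, 1 point a gene, with filled points for an adjusted p under 0.05 and a bar at the median of a list. Called genes of the transduction and scaffold lists lie below 0 in WT, and in KO all but Gnai3 do.

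Markers of cell types were compared between PI and CL in the same tables. All 7 neuronal markers were lower in PI in both genotypes, with medians of -0.18 in WT and -0.15 in KO, and 2 of them passed in each; their summed level was 6740 to 7378 CPM in PI WT against 7805 to 8333 in CL WT, and 6509 to 7188 in PI KO against 7652 to 8051 in CL KO. The 5 markers of upper cortical layers had medians of -0.38 in WT and -0.40 in KO, the 6 of excitatory neurons -0.12 and -0.24, and the 7 of interneurons 0.09 and 0.06. The 8 markers of astrocytes had medians of -0.06 and -0.07. Their summed level was 6562 to 6964 CPM in PI WT against 7532 to 7933 in CL WT. They did not move together: 1 was called higher and 2 lower in WT, and 1 higher and 1 lower in KO. The 4 markers of reactive astrocytes were all called higher, with medians of 2.21 and 2.46. The 7 markers of oligodendrocytes had medians of -0.36 and -0.13, the 5 of their precursors -0.23 and -0.26, the 6 of microglia -0.05 and -0.09, and the 6 of endothelium 0.35 and 0.12. Of the 6 microglial markers, 1 was called higher and 2 lower in WT, and 2 higher and 1 lower in KO. No marker of these lists was at the lowest value of its table in all 6 libraries of a group. Single libraries were not counted. None of the 6 markers of neutrophils and monocytes is listed in either table of PI against CL. In PI KO against PI WT, 2 of those 6 are listed, S100a8 at 1.16 and S100a9 at 0.77, and neither passed. The part of cell composition in the receptors' differences was not tested.

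Across the 12 WT libraries and, separately, the 12 KO libraries, Grm5 and Grm7 had correlations of 0.86 and 0.68, Grm3 and Grm7 ones of 0.80 and 0.80, and Grm5 and Grm3 ones of 0.81 and 0.72. Among the correlations with Grm7, that of Grm8 was the lowest, at 0.03 in WT and 0.26 in KO. Grm8 itself correlated with Grm4 at -0.26 in WT and 0.05 in KO, and with Grm5 at 0.25 and 0.82. These libraries include PI and CL and share their depth and scaling, so the values describe these libraries only. By the mean of both correlations over 13354 genes, the genes most like each receptor were Reps2 and Kcnip4 for Grm5 (0.93 and 0.92), C1qtnf4 and Fam102a for Grm2 (0.83 and 0.82), and Septin8 and Nrcam for Grm3 (0.94 and 0.94). For the group III receptors they were Tsc22d1 and Bahd1 for Grm4 (0.88 and 0.87), Abca9 and Camk4 for Grm7 (0.98 and 0.98), and Hnmt and Cntn4 for Grm8 (0.80 and 0.77).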

How the data were processed

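Per the labels' protocols, TRIzol-extracted RNA was cleared of DNA (TURBO DNA-free), 600 ng of it was depleted of rRNA (RiboCop), and sequencing libraries came from the CORALL kit for total RNA. The submitters' processing notes name the build mm10; the aligner, counter, annotation and scaling are not given in the sources used here. The authors deposited 4 tables of log2 CPM, 1 for each pair of groups, each scaled on its own and with its lowest value as an offset. In 100% of genes the 2 values at each end of a group are tied at its quartiles. The second lowest and second highest library were solved from those quartiles. In low genes, a tied pair was counted as whole where either of its 2 libraries came within 0.03 read of a whole read. This held for 81.6 to 87.8% of the pairs with solved values, against 7.5 to 14.8% with deposited ones.

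The difference between 2 groups of 6 was tested on the means of the 4 inner values with Winsorized variances, moderated with limma 3.58.1 in R 4.3.3 (trend on expression, two-sided, Benjamini-Hochberg over the table, threshold 0.05), after the code had been tested on simulated data. A group's error is its SE. This main test is unpaired: it takes the groups as independent, and its p-values measure the spread between animals within a group. Only the fit with the animal as a block uses the spread of the PI minus CL differences. Both libraries of a tied pair carry the same solved value there, so these differences are partly not the animals' own. For PI against CL titles give each animal 1 library of either kind, which pairs the libraries; the deviations of same-animal libraries correlated at -0.042 to 0.234 in WT and -0.039 to 0.239 in KO. Gene lengths and positions are from GENCODE M21 (GRCm38, the build of mm10), and promoters and microRNAs from RefSeq (GRCm38.p6).

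All 6 receptors are named in each comparison, and of the partner lists every called gene, or the 4 with the smallest p where more were called. Of the genes this rule names, 1 is not reported here. The members and lists were chosen with earlier results of these data known. The alternatives were limma on the deposited values, the replicate block, a prior without a trend, centred groups, a pseudocount of 1 CPM, and a filter at a mean of 1 log2 CPM.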

Additional observations from a re-analysis of the deposited data

How the results depend on the processing

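Of 192 values of a receptor's fold change under an alternative, 174 kept their direction and their side of the threshold, 14 newly passed it, 3 no longer passed it and 1 changed sign. That one was Grm5 in PI KO against PI WT, at 0.00175 with groups centred on their median gene. Limma on the deposited values, whose drawn-in ends make the spread too small, called 6459 genes and 5 receptors in PI WT against CL WT, 6666 and 5 in PI KO against CL KO, 2388 and 1 (Grm7) in PI KO against PI WT, 2311 genes in CL KO against CL WT, and 1940 genes and 2 receptors in the interaction. Leaving out CL KO library 6 in that fit, chosen after seeing the data, gave 6311 genes and 6 receptors in PI KO against CL KO and 1779 genes in CL KO against CL WT. The deposited ends of CL KO were set with that library included, so this fit does not fully remove it.

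Without a trend in the prior variance, 1015 genes and 1 receptor (Grm7) were called in WT and 739 and 1 (Grm7) in KO; Grm5 and Grm3 had adjusted p of 0.0785 and 0.136 in WT, and Grm3 one of 0.114 in KO. The cause was not tested. With the replicate block, 4 receptors and 2154 of 14338 genes were called in PI KO against CL KO (1440 genes without it). In PI WT against CL WT it called 3 receptors, as without it, and 2275 of 14489 genes (1537 without it). No other call of a receptor changed. Between genotypes the replicate number is only a number, and the block gave 6 genes in PI KO against PI WT and 85 in CL KO against CL WT. In the interaction the block pairs PI and CL of the same animal within each genotype, and it gave 1 gene. Grm5, Grm3 and the other receptors stayed uncalled in each of these. Divided by the longest coding transcript, a length chosen after seeing the data, Grm3 minus Grm5 was -0.23 in CL WT, -0.30 in PI WT, -0.18 in CL KO and -0.36 in PI KO. By that length Grm8 lay above Grm2 in every group, whereas per kilobase of annotated exon these receptors lay close together. Depth limits Grm4 and Grm2 most.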
